A study of Homo sapiens with 9 samples.

Results

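Splicing factors and heterogeneous nuclear ribonucleoproteins (hnRNPs) are the proteins that package nascent transcripts and decide which exons are joined. The 50 genes described here comprise 20 hnRNP genes, 15 genes of SR and SR-related proteins, 11 core spliceosome genes and 4 other RNA-binding regulators. They were chosen with earlier results of these data known. A peak was assigned to a gene when its midpoint lay in the gene body on the same strand in hg19. By this rule the genes held 100 of the 8460 Argonaute peaks of the series, namely 30 of the 3450 peaks found with the miR-342-3p mimic and 70 of the 5010 peaks found with the miR-342-5p mimic.

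The peaks came from Ago-HITS-CLIP, in which Argonaute is crosslinked to RNA by ultraviolet light and immunoprecipitated, and the RNA fragments it protects are sequenced. The cells were MDA-MB-231HM of WT genotype, a highly metastatic variant of a human triple negative breast cancer (TNBC) line. They were transfected for 48 h with 20 nM of a miR-342-3p mimic, a miR-342-5p mimic or a negative control mimic, 3 libraries each, and the comparison asked where Argonaute was found when either strand of miR-342 was supplied in excess over the control. The authors merged the libraries of a mimic and deposited a list of peaks per miR-342 strand, called against the control, with a score that stands for reads above background and is at least 5 in both lists. There is therefore no value per library, no replicate error and no known depth. The lists share their negative control libraries, the scores of the lists are not on a shown common scale, and mRNA levels were not analysed here, so a gene with few peaks and a gene with little mRNA cannot be told apart. Since peaks are no replicates, all tests and the 95% Wilson confidence intervals (CI) given below cover counting error only.

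As background, hnRNPs coat pre-mRNA and many of them repress nearby exons, whereas SR proteins bind exonic enhancers and recruit the spliceosome. The core spliceosome recognises the splice sites and the branch point through its small nuclear ribonucleoproteins and then rearranges into a catalytic centre. A microRNA leads Argonaute to RNA mainly through pairing of its seed, bases 2 to 8, and pairing in 3′UTRs is the class best known to lower mRNA and protein levels. The mature strands are shown first because every site below is read from them, with the seed in capitals (RefSeq, GRCh38.p14).
miR-342-3p: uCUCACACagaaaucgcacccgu
miR-342-5p: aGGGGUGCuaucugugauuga

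The sites searched within 50 nt of each peak summit, on the strand of the peak, comprised for miR-342-3p the 8mer GUGUGAGA, the 7mer-m8 GUGUGAG and the 7mer-A1 UGUGAGA. Those of miR-342-5p were the 8mer GCACCCCA, the 7mer-m8 GCACCCC and the 7mer-A1 CACCCCA. The 6mers UGUGAG and CACCCC, which the 7mers share, were counted separately. The sequences printed next are the sites of the highest peaks with a 7mer or 8mer, of all peaks with an 8mer, of a second SON peak and of the one 3′UTR peak with a 7mer, as RNA from hg19 with the site in capitals, because they show how the same seed match sat in genes of different function. The first group holds the miR-342-3p sites.
PRPF8, 8mer, chr17:1565334-1565363, minus strand: uuacuggugaaGUGUGAGAacaaaauccag
HNRNPM, 7mer-A1, chr19:8551268-8551297, plus strand: cugccagauauuUGUGAGAaauguaagugg
SRSF4, 7mer-m8, chr1:29475442-29475471, minus strand: gaagcgagggaGUGUGAGcaggggcaggag
SF1, 7mer-m8, chr11:64537493-64537522, minus strand: uccagcaacacGUGUGAGugauaaagucau
HNRNPAB, 8mer, chr5:177636319-177636348, plus strand: cuugacuuuuaGUGUGAGAucaagguggcc

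The miR-342-5p sites follow, in order of the peak score.
PRPF8, 7mer-A1, chr17:1554775-1554804, minus strand: ccccgcaguuauCACCCCAggaugucacca
SON, 8mer, chr21:34927504-34927533, plus strand: ccgucggagccGCACCCCAagccgccggag
SNRNP200, 7mer-m8, chr2:96961287-96961316, minus strand: gaucaucgucuGCACCCCcgagaaguggga
U2AF2, 7mer-A1, chr19:56171945-56171974, plus strand: cuuugagcacauCACCCCAaugcaguacaa
SNRNP200, 7mer-m8, chr2:96950190-96950219, minus strand: cauuaucaucaGCACCCCugagaaguggga
HNRNPL, 8mer, chr19:39329085-39329114, minus strand: aaccgcauccaGCACCCCAgcaacgugcug
SON, 7mer-m8, chr21:34927399-34927428, plus strand: ccgccgcagccGCACCCCcagccgccgcag
SF3B2, 8mer, chr11:65824347-65824376, plus strand: ugccaagauggGCACCCCAgucccucggcc
SRSF4, 8mer, chr1:29493253-29493282, minus strand: gcccugaagucGCACCCCAgcucugccacu
PTBP1, 7mer-A1, chr19:811294-811323, plus strand: ccgcggcugcgaCACCCCAaccccagcccu

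Argonaute peaks were found in 31 of the 50 genes. With miR-342-3p, 18 genes held a peak (36.0%), against 11.8% of the 20136 protein-coding genes of the annotation. With miR-342-5p, 23 genes held a peak (46.0%), also against 11.8% of all protein-coding genes. The gene with most peaks was SNRNP200 in the miR-342-5p list, with 10, followed by PRPF8 in the same list, with 9. Peaks of both lists were present in 10 genes, peaks of the miR-342-3p list alone in 8 and of the miR-342-5p list alone in 13. The lists share their negative control libraries, so this overlap is a description and not a result. More than 1 peak was found in 9 genes of the miR-342-3p list and 15 of the miR-342-5p list, and the 4 genes with most peaks held 11 of the 30 and 33 of the 70 peaks. The overlap and these numbers were not computed over all protein-coding genes, so they describe the members alone. Members' scores were above those of the lists as a whole, with a median of 45 (range 6 to 309) against 24 for all miR-342-3p peaks, and of 33 (range 6 to 295) against 19 for all miR-342-5p peaks. These comparisons were not matched for mRNA level or transcript length and carry no test. The 50 genes were also chosen with earlier results of these data known, and the part of this choice in the contrasts was not tested.

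**Figure D1:**
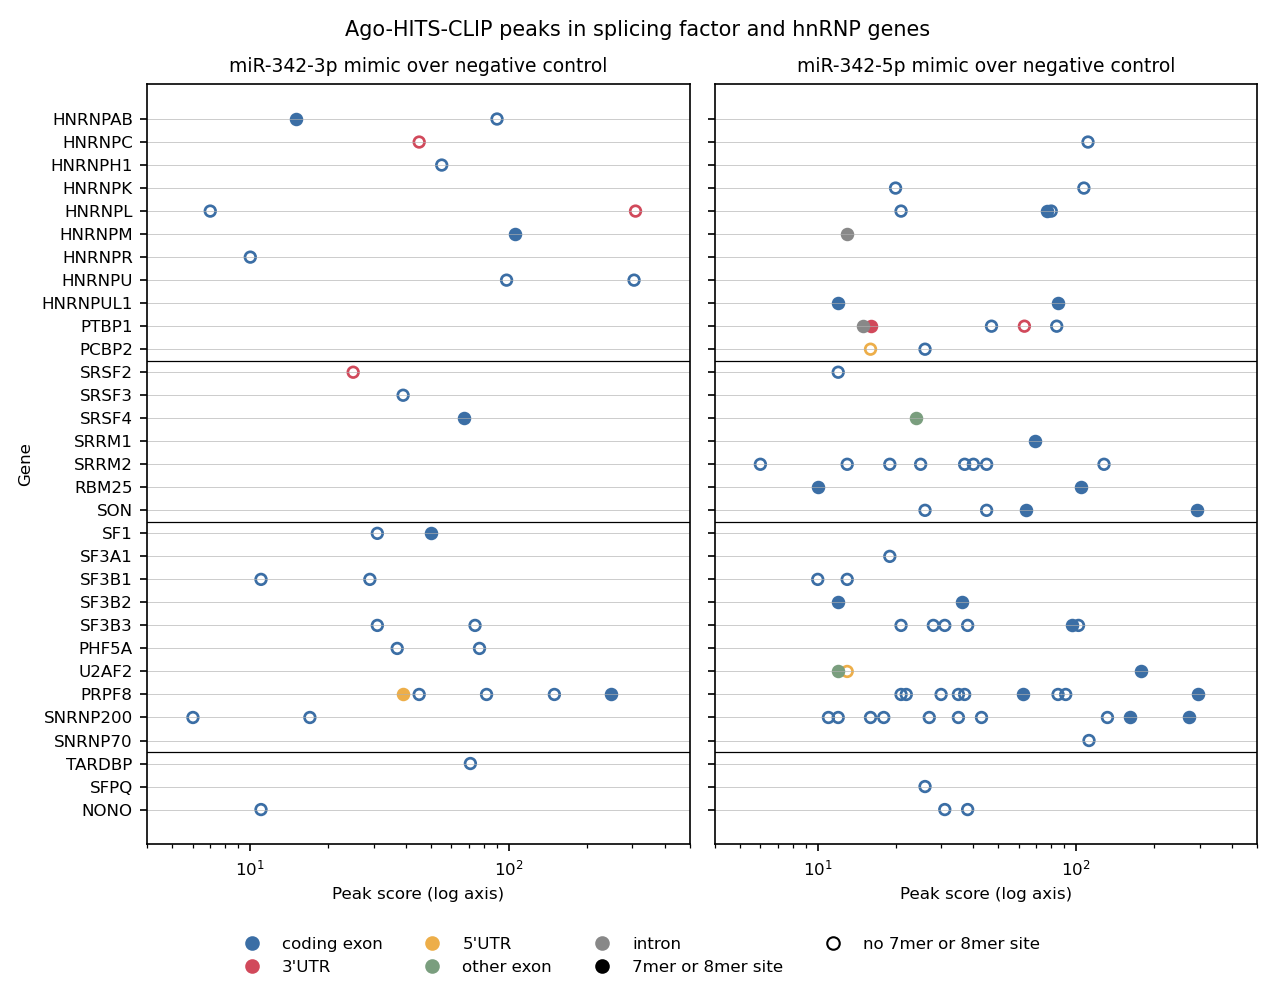
Score of each peak (x axis, log scale) in the 31 splicing factor and hnRNP genes with a peak (rows), for the miR-342-3p list (left) and the miR-342-5p list (right). Colours give the location, filled points have a 7mer or 8mer site within 50 nt of the summit, and horizontal lines separate hnRNPs, SR proteins, core spliceosome and other regulators. PRPF8 and SNRNP200 hold the longest rows of points in the miR-342-5p panel, and HNRNPL, HNRNPU and PRPF8 the highest scores in the miR-342-3p panel.

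The core spliceosome held more peaks than any of the other classes in both lists, in counts not adjusted for transcript length or mRNA level. Of its 11 genes, 6 held 15 miR-342-3p peaks and 8 held 34 miR-342-5p peaks, and U2AF1 was the one gene without a peak. PRPF8, the large scaffold protein at the catalytic centre, held 5 miR-342-3p and 9 miR-342-5p peaks, or 0.687 and 1.24 peaks per kb of its transcript. Its highest miR-342-3p peak (chr17:1565324-1565400, score 249, percentile 96.8 of the list) lay in coding exon 25 of 43, with the 8mer centred 3 nt from the summit. A second peak, in coding exon 13, scored 150 (chr17:1581835-1581892, percentile 93.3) and had no 6mer, 7mer or 8mer. The other miR-342-3p peaks of PRPF8 scored 82, 45 and 39, and the lowest of them lay in the 5′UTR with a 7mer-m8 1 nt from the summit.

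The highest miR-342-5p peak of all members was also in PRPF8 (chr17:1554708-1554847, score 295, percentile 98.8), in coding exon 41 of 43, with a 7mer-A1 at the summit. The other 8 miR-342-5p peaks of this gene scored from 21 to 91, and 1 of them, at 62, had a 7mer. In exon 25, a miR-342-5p peak with a score of 35 ended 8 nt from the miR-342-3p peak with the 8mer, so that peaks of both strands of miR-342 lay side by side, each over a match to its own seed, a 6mer in the case of miR-342-5p. SNRNP200 is the helicase that unwinds paired small nuclear RNAs when the spliceosome is activated. It held 2 miR-342-3p peaks with scores of 17 and 6 (percentiles 35.5 and 1.7) in coding exon 13, and 10 miR-342-5p peaks with scores from 11 to 274, of which the one with a score of 12 overlapped both miR-342-3p peaks by 52 and 38 nt. Its highest miR-342-5p peaks lay in coding exon 14 of 45 (chr2:96961226-96961396, score 274, percentile 98.6) and coding exon 31 (chr2:96950181-96950245, score 161, percentile 96.4). Both had a 7mer-m8, and their printed windows, with summits at 1866 and 4384 nt of the transcript, were identical at 25 of 30 positions. SNRNP200 is built of a pair of helicase cassettes in tandem, which is background here, since the positions of the cassettes were not mapped. The next peak, in exon 30, scored 132 and had a 6mer.

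The SF3a and SF3b complexes hold the branch point during early assembly. SF3B3 held 2 miR-342-3p peaks (scores 74 and 31) and 6 miR-342-5p peaks (scores 21 to 102), all of them coding, and the one site among these 8 peaks was a 7mer-A1 under the miR-342-5p peak with a score of 96. SF3B1, the subunit that contacts the branch point, held 2 peaks in each list, scoring 29 and 11 in the miR-342-3p list and 13 and 10 in the other, none with a site. SF3B2 held 2 neighbouring miR-342-5p peaks in coding exon 6, with scores of 36 (chr11:65824309-65824385, percentile 74.2) and 12 (chr11:65824387-65824426, percentile 28.3). A single 8mer lay inside the higher peak, 2 nt from its summit, and outside the lower peak, 37 nt from its summit. Both peaks therefore count the same site. SF3A1 held 1 miR-342-5p peak, with a score of 19. PHF5A, a small SF3b subunit, had peaks in the miR-342-3p list alone, at 77 (chr22:41864128-41864151, percentile 85.2) and 37, in exons 2 and 1 of a transcript of 1053 nt, or 1.90 peaks per kb. The higher peak covered the length of exon 2, and its 6mer ran from the end of this exon into the intron and was not in the spliced transcript.

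Among the factors that first read the 3′ splice site, SF1, which binds the branch point, held miR-342-3p peaks with scores of 50 and 31 and no miR-342-5p peak. U2AF2, which binds the polypyrimidine tract, held no miR-342-3p peak and 3 miR-342-5p peaks. The highest of these, in coding exon 4 of 12 (chr19:56171902-56171985, score 178, percentile 96.9), had a 7mer-A1 8 nt from the summit. The other U2AF2 peaks scored 13 in a 5′UTR and 12 in an exon of a retained-intron transcript. SNRNP70, the protein of the U1 particle that reads the 5′ splice site, held 1 miR-342-5p peak with a score of 112 and a 6mer.

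**Figure D2:**
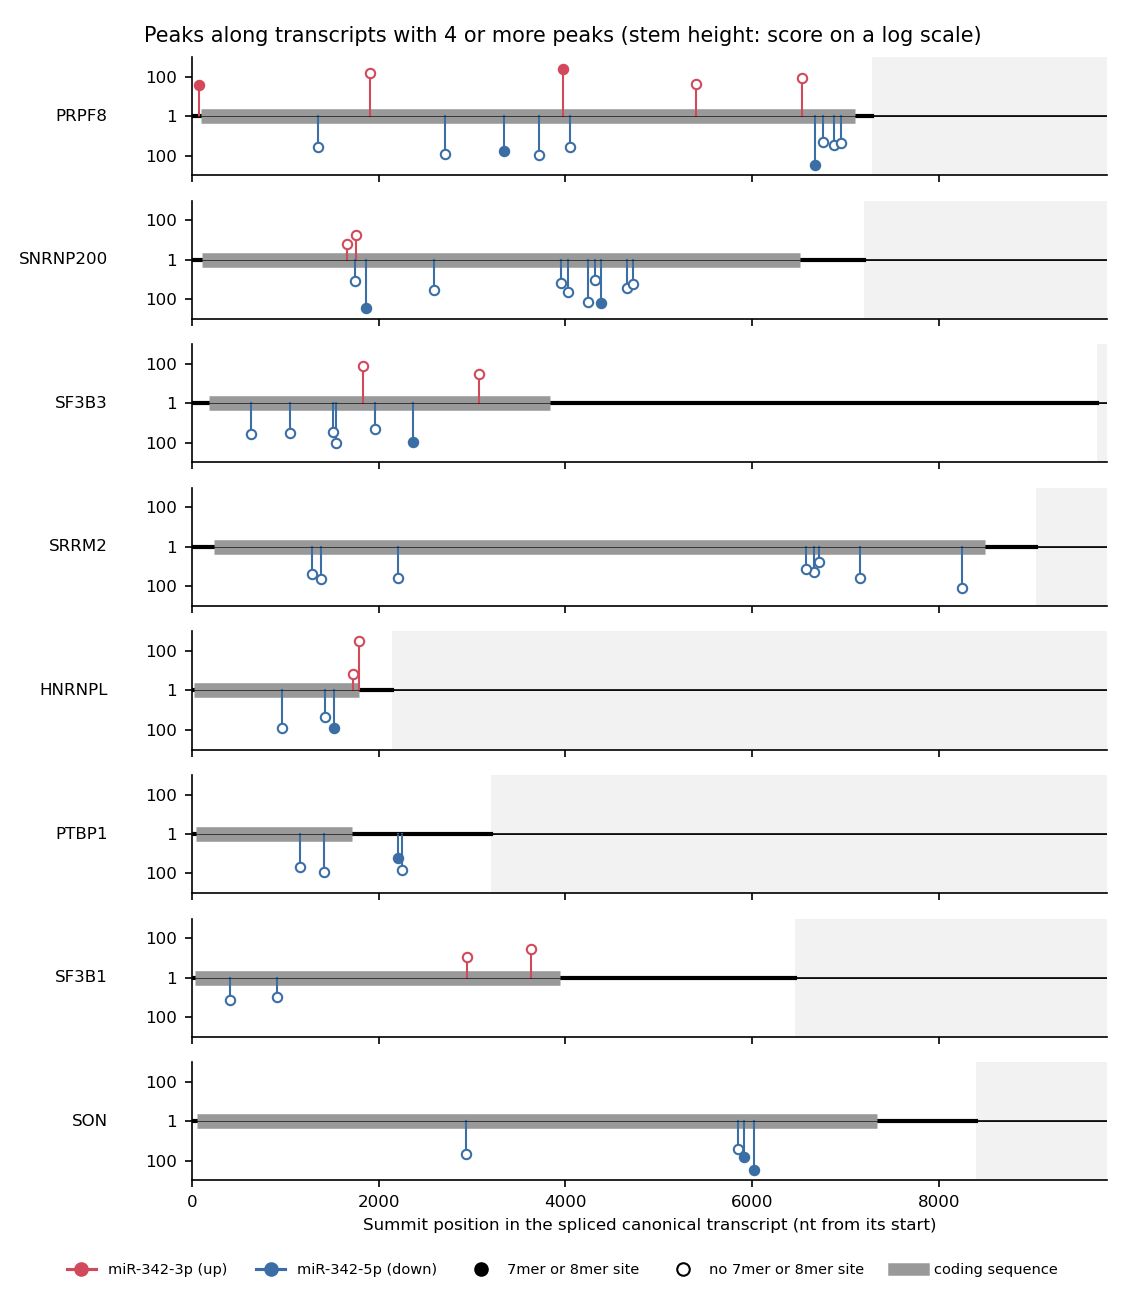
Peak summits along the spliced canonical transcript (x axis, nt from its start) of the 8 genes with 4 or more peaks in both lists together. Stems pointing up are miR-342-3p peaks and stems pointing down miR-342-5p peaks, with the score on a log scale as height, filled points for a 7mer or 8mer site, a grey bar for the coding sequence, and shading beyond the transcript's end. The summits lie on the coding bars except for 1 in the 5′UTR of PRPF8, 2 in the 3′UTR of PTBP1 and the HNRNPL summit at the end of its bar, and the 3′UTR of SF3B3, the longest drawn, carries none. The intron peak of PTBP1 is not drawn.

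Most peaks in the genes of SR and SR-related proteins were from the miR-342-5p list, which also held more peaks over all members (70 against 30). Of the 15 genes, 3 held 3 miR-342-3p peaks and 6 held 17 miR-342-5p peaks. These 17 were concentrated in the large SR-related proteins. SRRM2, a scaffold of nuclear speckles, held 8, with scores from 6 to 128, of which 0 had a 7mer or 8mer and 2 had a 6mer. SON, another speckle protein, held 4, with scores of 292, 64, 45 and 26. The highest SON peak (chr21:34927438-34927597, percentile 98.7) lay in coding exon 3 of 12 and had 3 sites within 50 nt of its summit. The longest of these sites, an 8mer, was centred 12 nt away, and a 7mer-m8 lay closer to the summit. Its neighbour with a score of 64 had 2 sites, and the windows printed for these SON peaks were identical at 26 of 30 positions, a stretch of similar sequence within 1 exon. RBM25 held peaks with scores of 104 and 10, each over its own 7mer-A1, and SRRM1 held 1 with a score of 69 over a 7mer-A1.

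The classical SR proteins, whose names start with SRSF, had few peaks. SRSF4 held 1 peak in each list. Its miR-342-3p peak scored 67 in the last coding exon over a 7mer-m8, and its miR-342-5p peak (chr1:29493240-29493306, score 24, percentile 60.4) had an 8mer at the summit, in an exon that is part of nonsense-mediated decay and retained-intron transcripts of the gene and not of its coding transcripts. SRSF2 held a miR-342-3p peak with a score of 25 in its 3′UTR and a miR-342-5p peak with a score of 12 in its coding sequence, and SRSF3 held a miR-342-3p peak with a score of 39. None of these 3 peaks had a 7mer or 8mer. SRSF1, SRSF5, SRSF6, SRSF7, SRSF9, SRSF10 and SRSF11 had no peak in either list, and neither did RBM39.

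Of the 20 hnRNP genes, 7 held 10 miR-342-3p peaks and 7 held 16 miR-342-5p peaks, and the 2 highest miR-342-3p scores of all members were among them. HNRNPL, a splicing regulator that binds CA-rich RNA, had the highest miR-342-3p score of all members (chr19:39327318-39327409, score 309, percentile 97.7). This peak lay in exon 13 of 13 with its summit at the stop codon end of the coding sequence and its midpoint in the 3′UTR, had no 6mer, 7mer or 8mer, and its summit window had 1 near-copy elsewhere in the genome (at least 30 nt with at least 95% identity). The same bases are also annotated to another gene that overlaps HNRNPL on its strand, so the peak cannot be given to HNRNPL alone. HNRNPU, which also organises chromatin-associated RNA, followed at 305 (chr1:245021313-245021365, percentile 97.6), in coding exon 7 of 14, and had a second peak at 98, both without a site. HNRNPM, which favours GU-rich RNA, followed the PRPF8 peaks at 106 (chr19:8551200-8551289, percentile 89.8), in coding exon 14 of 16 over a 7mer-A1. HNRNPAB held 2 peaks, at 90 (chr5:177634170-177634226, percentile 87.6) and 15 (chr5:177636360-177636419, percentile 30.0). HNRNPH1 (55), HNRNPC (45, in the 3′UTR) and HNRNPR (10) held 1 miR-342-3p peak each, none with a 7mer or 8mer. HNRNPL held a second miR-342-3p peak, in coding exon 12, with a score of 7 and no match. Its summit window had 1 near-copy, and its bases are also annotated to the overlapping gene.

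With miR-342-5p, the highest hnRNP peaks were those of HNRNPC at 111 and HNRNPK at 107, neither with a match of any kind and both with near-copies of the summit window elsewhere. HNRNPC binds uridine tracts and HNRNPK binds C-rich RNA. HNRNPL held 3 peaks, at 80, 77 and 21, and the peak at 77 (chr19:39329037-39329171, percentile 90.1) lay in coding exon 10 over an 8mer 9 nt from the summit. All 3 summit windows had near-copies elsewhere, and the bases of the peaks at 77 and 21 are also annotated to the overlapping gene on this strand. PTBP1, the polypyrimidine tract binding protein, held 5 peaks, more than any other hnRNP gene. Its coding peaks scored 84 and 47, its 3′UTR peaks 63 and 16, and an intron peak with 929 near-copies scored 15. The 3′UTR peak with a score of 16 (chr19:811260-811325, percentile 42.5) was the one 3′UTR peak of the members, in either list, with a site other than a 6mer, a 7mer-A1 centred 7 nt from the summit. HNRNPUL1 held 2 coding peaks over 7mers, at 85 and 12, PCBP2 held peaks at 26 and 16 in bases that other genes on its strand share, and HNRNPM held an intron peak at 13.

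Of the other regulators, TARDBP held 1 miR-342-3p peak at 71, SFPQ 1 miR-342-5p peak at 26, and NONO 1 miR-342-3p peak at 11 and miR-342-5p peaks at 38 and 31. All of these were coding and none had a 7mer or 8mer. TARDBP encodes TDP-43, which binds UG repeats, and SFPQ and NONO are paraspeckle proteins. ESRP1, the epithelial splicing regulator, had no peak.

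The 19 genes without a peak included HNRNPA0, HNRNPA1, HNRNPA2B1, HNRNPA3, HNRNPD, HNRNPDL, HNRNPF, HNRNPH3 and PCBP1 besides the SR proteins, U2AF1 and ESRP1 named above. The A/B-type and D-type hnRNPs thus had HNRNPAB as their one gene with a peak. Reads from sequences with near-copies elsewhere may be lost or moved in mapping, and many of these genes have processed pseudogenes. The share of 50-nt tiles of the transcript with a near-copy had a median of 20.6% (0 to 76.3%) in the 19 genes without a peak and of 14.9% (0 to 89.5%) in the 31 genes with one. It was 76.3% in HNRNPA3 and 55.4% in HNRNPA1, but 0 in HNRNPA2B1, SRSF5 and SRSF7, which also had no peak, and 89.5% in HNRNPK, which had 2. The part of mapping in these absences was not tested, and a gene listed without a peak may have had binding below the minimum score of 5.

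Coding exons held most of the member peaks in both lists when peaks were placed on basic protein-coding transcripts, and this depended on the transcripts used. With all transcripts of the annotation and 3′UTRs still taken first, 10 of 30 miR-342-3p and 34 of 70 miR-342-5p member peaks were coding, and 19 and 31 were in a 3′UTR of some transcript. The values that follow are for the basic protein-coding transcripts. Shares over all peaks of the lists are given for this placement alone. Whether the contrast between members and whole lists depends on the placement was not tested. For miR-342-3p, 26 of 30 member peaks were coding (86.7%, CI 70.3 to 94.7%), against 55.5% of all peaks of the list, and 3 were in a 3′UTR (10%, CI 3.46 to 25.6%), against 33.7% of all peaks. For miR-342-5p, 62 of 70 were coding (88.6%), against 70.0% of all peaks, and 2 were in a 3′UTR (2.86%), against 17.4%. The 3 miR-342-3p 3′UTR peaks were those of HNRNPL, HNRNPC and SRSF2, none with a site and all with a near-copy of the summit window. Both miR-342-5p 3′UTR peaks were in PTBP1. Between the mimics, the 3′UTR share of member peaks differed by 7.14 percentage points (p = 0.158, Fisher's exact test, two-sided) and the coding share by -1.90 (p = 0.749, same exact test), so no difference in location between the mimics was detectable with these numbers of peaks. Without the 8 miR-342-3p and 12 miR-342-5p peaks that had a near-copy, the differences turned to -3.45 and 7.52 percentage points (p = 1.0 and 0.434 by the same exact test).

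**Figure D3:**
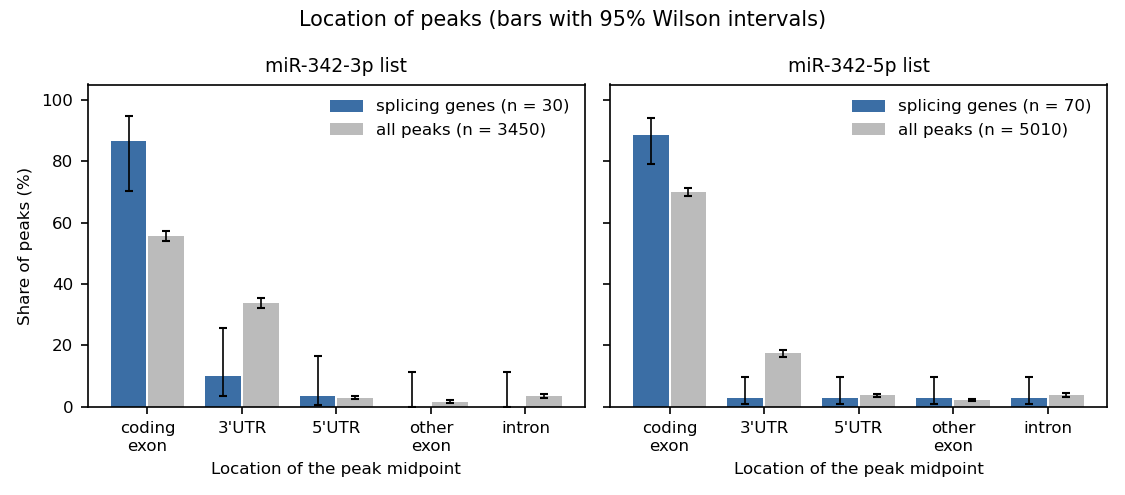
Share of peaks by location of the midpoint (y axis, percent) in the splicing factor and hnRNP genes (blue) and in the whole list (grey), for miR-342-3p (left) and miR-342-5p (right). Error bars are 95% Wilson intervals. Coding exons hold 86.7% and 88.6% of the peaks in splicing genes, and 3′UTRs 10% and 2.86%.

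Seed sites were found more often on the strand of the peak than opposite to it in the same windows. For miR-342-3p, 6 of 30 member windows had a 7mer or 8mer (20.0%, CI 9.51 to 37.3%) and 0 of 30 on the opposite strand (exact McNemar test, p = 0.03125). The share over all miR-342-3p peaks was 20.6%. For miR-342-5p, 21 of 70 windows had a site (30.0%), against 1 on the opposite strand (28.6 percentage points, exact McNemar test, p = 1.1e-05), and the share over all 4963 nuclear miR-342-5p peaks was 33.2%. The shares of the members were close to those of the whole lists. The miR-342-3p result rests on 6 windows and passed the threshold of 0.05 by little, and with 1 peak kept per gene it was 22.2 percentage points with p = 0.125 (exact McNemar test). The 6 miR-342-3p sites were 2 8mers, 3 7mer-m8 and 1 7mer-A1, and the 21 miR-342-5p windows held an 8mer in 5, a 7mer-m8 in 7 and a 7mer-A1 in 9 as their best site. A further 1 and 11 windows had a 6mer alone.

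The sites lay close to the summits. The distance was measured from the summit to the centre of the best site in each window. Its median was 4.5 nt (1 to 27) in the 6 miR-342-3p windows and 8 nt (0 to 37) in the 21 miR-342-5p windows. Of these best sites, 5 of 6 and 19 of 21 were within 15 nt. In the miR-342-5p list, peaks with a site had a median score of 64 (10 to 295, n = 21), peaks with a 6mer alone 63 (12 to 132, n = 11), and peaks without a match 26.5 (6 to 111, n = 38). The 5 highest miR-342-5p peaks, in PRPF8, SON, SNRNP200 and U2AF2, all had a 7mer or 8mer, and the highest peak without any match, in HNRNPC, was ninth. In the miR-342-3p list, the highest member peaks, in HNRNPL and HNRNPU, had no match. The median score there was also higher with a site, at 58.5 (15 to 249, n = 6) against 39 (6 to 309, n = 23) without a match. These scores were not tested between groups of peaks. Alternating GU runs of at least 12 nt, which were present in 10.3% of all miR-342-3p windows, occurred in 0 of the 30 member windows (CI up to 11.4%). No miR-342-3p member window held a 7mer or 8mer of miR-342-5p. One miR-342-5p window, in exon 29 of SNRNP200, held a 7mer-A1 of miR-342-3p, where the miR-342-3p list had no peak.

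Several peaks ended at exon borders, and the search was repeated with the exons joined. Of the 95 member summits that lay in the canonical transcript, 48 had a window that crossed an exon junction. The HNRNPAB peaks in exons 5 and 6 had summits 34 nt apart in the spliced transcript and lay on both sides of one 8mer that spans the junction by its first base. The exon 5 peak, the higher at 90, had no site in the genome sequence, while in the spliced transcript the 8mer was 7 nt from its summit. The intron bases of the genomic window printed above are replaced there by the end of exon 5, as shown here.
HNRNPAB, spliced, transcript positions 889 to 918: aguggaagcaaGUGUGAGAucaagguggcc

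The SF1 peaks in exons 4 and 5 were 13 nt apart when spliced and shared one 7mer-m8, which was 19 nt from the summit of the peak at 31. The PHF5A peaks were 24 nt apart and those of SF3B3 in exons 10 and 11, at 28 and 102 in the miR-342-5p list, 30 nt apart, with no site in either case. The coding peak of PTBP1 with a score of 47 gained a 7mer-A1 from exon 11, at 12 nt from its summit. This site and its spliced surroundings were as follows.
PTBP1, spliced, transcript positions 1161 to 1190: cagagagagucaCACCCCAaagccucuuua

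With spliced windows, 8 of 30 miR-342-3p member peaks had a site, as HNRNPAB and SF1 gained 1 each. Of the 65 miR-342-5p summits in canonical transcripts, 18 had one, against 17 in the genome sequence. Peaks on both sides of a junction were counted as separate peaks throughout, although in HNRNPAB and SF1 they shared a site.

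Read from the side of the sites, matches in coding exons of these genes carried a peak in larger shares than those of all genes, a comparison that was not matched for mRNA level and was not tested. The members had 11 coding 7mer or 8mer sites for miR-342-3p, of which 5 had a summit within 50 nt (45.5%, CI 21.3 to 72.0%), against 6.94% of the 4205 such sites of all protein-coding genes. For miR-342-5p, 19 of 27 coding sites had one (70.4%, CI 51.5 to 84.2%), against 14.7% of 6616. This interval treats each site as separate, although neighbouring sites in a SON repeat and in HNRNPL shared the same peaks. All 5 coding 8mers of the members had a summit, namely those of PRPF8 and HNRNPAB for miR-342-3p and those of SON, HNRNPL and SF3B2 for miR-342-5p. The 4 miR-342-3p coding sites with an 8mer or 7mer-m8 all had one, and of the 7 with a 7mer-A1 the HNRNPM site alone did. For miR-342-5p the counts were 7 of 10 for the 7mer-m8 and 9 of 14 for the 7mer-A1. Over all protein-coding genes, coding sites of miR-342-3p had a summit in 17.9% of 8mers, 6.89% of 7mer-m8 and 3.96% of 7mer-A1. The shares for miR-342-5p were 21.2%, 16.1% and 11.7%.

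The coding sites without a summit were in HNRNPF, HNRNPH1, HNRNPR, HNRNPU, SF3B3 and SNRNP200 for miR-342-3p. The HNRNPU site lay 719 nt in the genome from the edge of the peak with a score of 305, and the SF3B3 site 9 nt from the edge of the peak with a score of 31. For miR-342-5p they were in HNRNPDL, HNRNPL, PTBP1, SF1, SFPQ, SON, SRRM1 and SRRM2. The SON site was inside the peak with a score of 292 but over 50 nt from its summit, and the PTBP1 site was the one in exon 11 that spliced windows place 12 nt from a summit. In 3′UTRs, 0 of 11 miR-342-3p sites (CI up to 25.9%) and 1 of 6 miR-342-5p sites had a summit, against 4.09% and 6.20% over all protein-coding genes. The 3′UTR sites included a miR-342-3p 8mer in HNRNPA0 (chr5:137083181-137083188) and a miR-342-5p 8mer in HNRNPA1 (chr12:54678597-54678604), both in genes without any peak. The mRNA levels of these genes were not analysed here. In introns, 0 of 243 miR-342-3p sites and 2 of 63 miR-342-5p sites had a summit, against 0.047% and 0.173% over all protein-coding genes. The intron sites with a summit were in HNRNPM and in PTBP1, where the summit window had 929 near-copies.

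**Figure D4:**
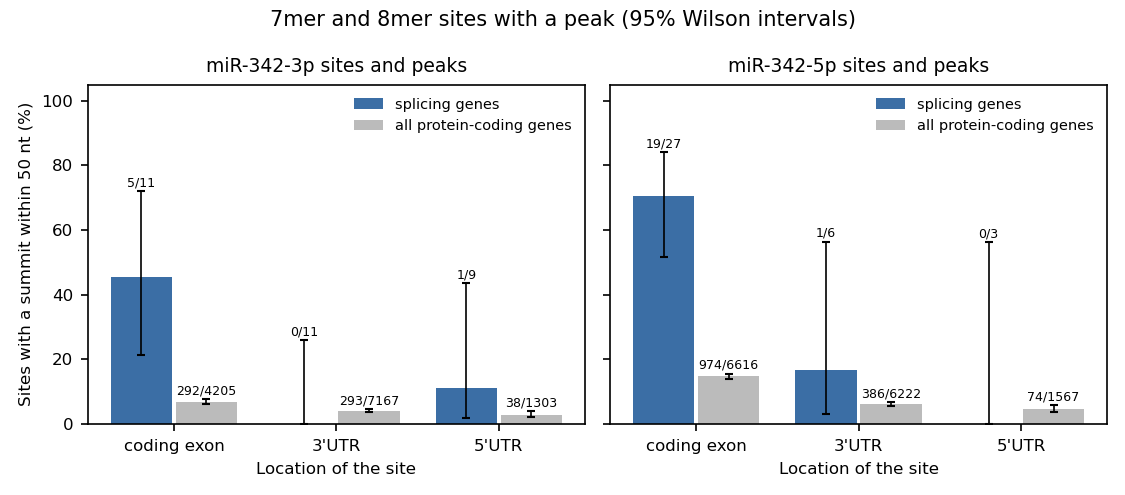
Share of 7mer and 8mer sites with a peak summit of the same mimic within 50 nt (y axis, percent) by location of the site, in the splicing factor and hnRNP genes (blue) and in all protein-coding genes (grey). Numbers are sites with a summit over all sites, and error bars are 95% Wilson intervals. Coding sites stand at 45.5% and 70.4% in the splicing genes, and 0 of 11 3′UTR sites carried a miR-342-3p summit.

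A wider list of 97 further genes of the splicing machinery, chosen by function, had peaks in smaller shares of its genes than the list of 50. Of these, 27 held 38 miR-342-3p peaks (27.8% of the genes) and 35 held 69 miR-342-5p peaks (36.1%). Coding exons held 31 and 55 of these peaks (81.6% and 79.7%), and 3′UTRs held 6 and 9 (15.79% and 13.04%), larger shares than the 10% and 2.86% of the 50 genes. A 7mer or 8mer was present in 7 (18.4%) and 19 (27.5%), and the median scores were 23.5 and 18, close to the 24 and 19 of the whole lists. The 50 and the 97 genes were chosen with earlier results of these data known. Their comparison was not matched for mRNA level or transcript length and was not tested.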

How the data were processed

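The 9 Ago-HITS-CLIP libraries were made from MDA-MB-231HM cells after transfection of 3 mimics. Per the submitters' processing notes, reads were processed with cutadapt 1.13, TopHat2 2.0.13, UMI-tools and MACS2 2.1.1.20160309 on hg19. How libraries were scaled to each other is not given in the sources used here. The authors deposited 1 peak list per miR-342 mimic, with replicates merged, giving for each peak its position, strand, summit (other values) and a score of reads above background. Depth per sample is unknown.

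Peaks were placed by midpoint and strand on GENCODE release 44 mapped to GRCh37, using basic protein-coding transcripts in the order 3′UTR, coding exon, 5′UTR, other exon, intron. Windows reached 50 nt on each side of the summit. The 47 mitochondrial miR-342-5p peaks were not searched for sites. The percentile is the share of the list's peaks with lower scores, ties counted at 0.5. Near-copies were ungapped blastn 2.17.0 alignments of at least 30 nt and 95% identity elsewhere on the assembled chromosomes. Python 3.11.15, pandas 2.3.3, scipy 1.17.1, pysam 0.24.0, samtools 1.23.1 and matplotlib 3.10.9 were used. The site and near-copy searches were tested on simulated data.

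Fisher's and McNemar's exact tests were two-sided, with no correction over these 4 tests. The members and lists were chosen with earlier results of these data known. Peaks described in full were the 5 highest per list, 3′UTR peaks with a 7mer or 8mer, peaks with an 8mer, and the highest PHF5A peak. Others are given by number and score, and peaks singled out beyond this were chosen after their values were seen. Encoded residues were planned and are not given here. Alternatives were other score minima, 1 peak per gene, other windows and site classes, other placements, and leaving out near-copies. Spliced windows were added after seeing the data.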

Additional observations from a re-analysis of the deposited data

How the results depend on the processing

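Directions of the location and site comparisons held under every alternative tried, except that leaving out peaks with a near-copy turned the 3′UTR difference between the mimics to -3.45 percentage points (p = 1.0, Fisher's exact test) and the coding difference to 7.52 (p = 0.434), and left 11 genes with peaks in the miR-342-3p list. Placement on all transcripts of the annotation gave a 3′UTR difference of 19.0 percentage points (19 of 30 against 31 of 70) and a coding difference of -15.2 (10 of 30 against 34 of 70), so that coding exons no longer held a majority of the member peaks in either list. The strand difference of miR-342-3p sites no longer passed 0.05 by the exact McNemar test for scores above 50 (23.1 percentage points, p = 0.25) or above 100 (40, p = 0.5), 1 peak per gene (22.2, p = 0.125), windows of 25 nt (16.7, p = 0.0625), the whole peak as window (16.7, p = 0.0625), 8mers alone (6.67, p = 0.5) or with 6mers added (20.0, p = 0.0703). That of miR-342-5p did not pass for 8mers alone (7.14, p = 0.0625, exact). With scores above 50, the miR-342-3p list kept 13 member peaks in 10 genes and the miR-342-5p list 23 in 14 genes. Above 100 these numbers were 5 in 4 genes and 12 in 10 genes. No paired analysis was possible because the lists hold no values per library, and no replicate could be left out for the same reason. Depth is unknown, so binding below a score of 5 was not detectable.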
